A study of Sus scrofa with 6 samples.

Results

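The genes described here are 10 markers of vascular endothelial cells, PECAM1, CDH5, CLDN5, ESAM, TIE1, ROBO4, VWF, EGFL7, EMCN and ERG, taken by symbol from a table of 13288 genes measured in the ventricular myocardium of minipigs. All 10 were listed in the table, and all 10 were among the 11029 genes that reached 1 FPKM in at least 3 of the 6 samples and were tested. RNA was sequenced from 3 sham and 3 DAC animals, all male Tibetan minipigs. In the DAC group the descending aorta was narrowed by surgery, which made the left ventricle pump against a raised pressure, and the sham group had the same opening of the chest with no constriction. Cardiac tissue was taken at week 12 after surgery, and the age of the animals is not given in the sources used here. No transgene or deletion was part of the design, and no drug was under study, though the surgical procedure used anaesthetics and penicillin. Each sample was 1 animal. Sham replicates 1 to 3 and DAC replicates 4 to 6 are named as in the sample titles. The values are FPKM, fragment numbers scaled to the length of the transcript and to the mapped fragments of the sample. A gene is called here at an unadjusted P under 0.05 in limma's moderated test on log2(FPKM + 1), the threshold of the study.

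Endothelial cells line every vessel of the heart, and in the myocardium most of them belong to capillaries that run beside the cardiomyocytes. They are held together by adherens junctions built on VE-cadherin (CDH5) and by tight junctions that contain claudins, and they set which molecules and leukocytes leave the blood. A small set of transcription factors, of which the ETS factor ERG is among the best known, keeps the genes of this cell type active. Because the markers are active mainly in endothelial cells, their level in whole tissue is often read as a measure of how much endothelium a sample holds. That reading is looser for some of them. EMCN is typical of capillaries and veins rather than arteries, and VWF is also made by the precursors of platelets. In RNA from whole tissue, fewer endothelial cells and less RNA of a gene per endothelial cell cannot be told apart.

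The 10 markers did not move together. CLDN5, ROBO4 and VWF were called lower in DAC, EMCN was called higher, and PECAM1, CDH5, ESAM, TIE1, EGFL7 and ERG were not called. Among all genes tested 5.27% were called lower (581 of 11029) and 3.25% were called higher (358 of 11029), to be set beside 3 and 1 of the 10 markers. The balance of directions over all genes depends on the scaling, with 407 lower and 500 higher when mitochondrially encoded genes are left out, 479 and 429 with median scaling and 469 and 418 with quantile normalization, while the calls of the markers were the same under these scalings. The 3 DAC animals all lay below the 3 sham animals for CLDN5, ROBO4 and VWF, as for 8.91% of all genes, and all lay above them for EMCN, as for 6.01% of all genes. The mean was lower in DAC for 9 of the 10, against 5884 of all 11029 genes, and the median log2 fold change of the markers was -0.30 against -0.016 over all genes. None of these calls passed adjustment over all genes: limma's adjusted P was 0.482 for CLDN5, and the smallest of any gene tested was 0.106. A two-sided exact permutation test of 3 against 3 animals cannot give a P under 0.1, so it reaches that floor and no lower for the 4 called markers.

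**Figure D1:**
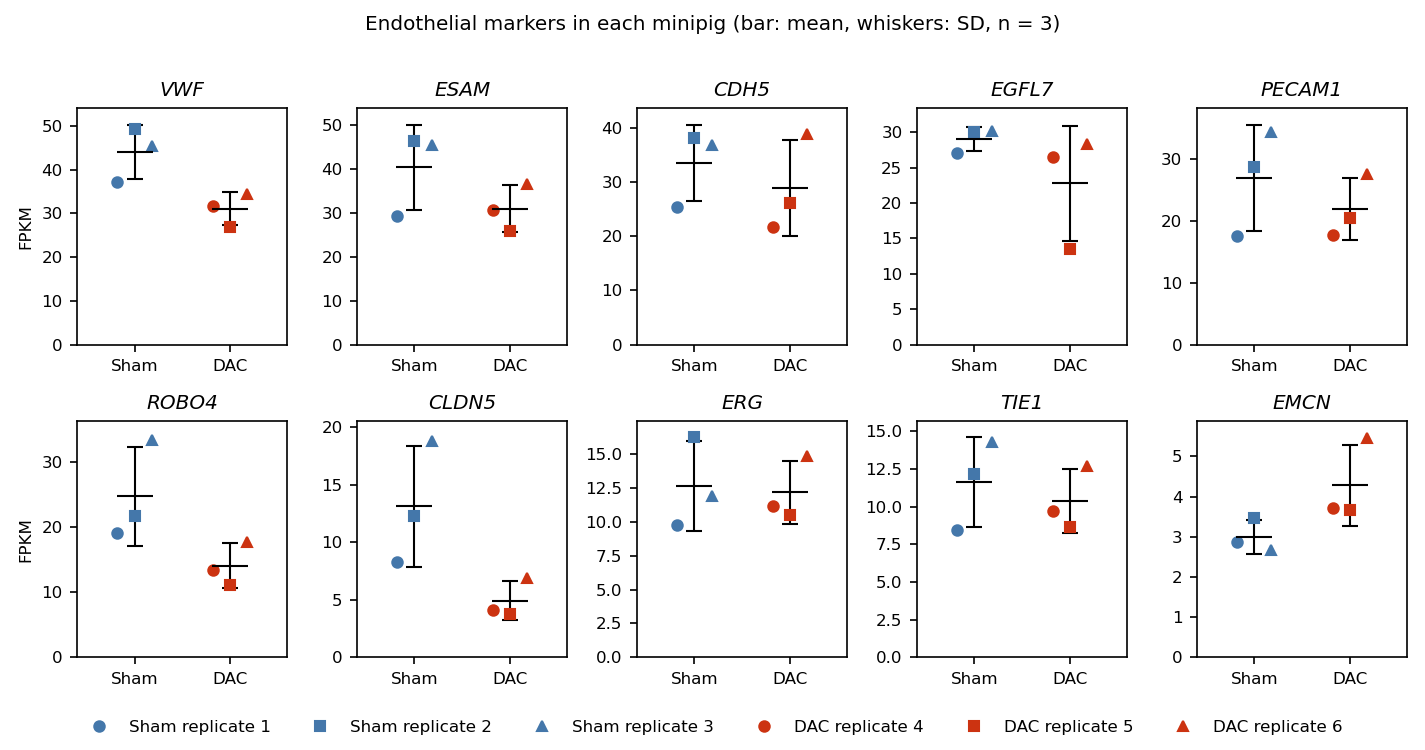
FPKM of the 10 endothelial markers (vertical axes, each from 0) in the 3 sham animals (blue) and the 3 DAC animals (red), with the mean as a bar and the SD as whiskers. The groups are apart in VWF, ROBO4, CLDN5 and EMCN and overlap in the other 6 panels.

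Among the junction genes, CLDN5 showed the largest difference of the 10. It encodes the claudin that seals tight junctions between endothelial cells. CLDN5 (ENSSSCG00000041667, chr14:51161032-51163482, minus strand) stood at 8.30, 12.3 and 18.8 FPKM in sham replicates 1, 2 and 3 and at 4.14, 3.78 and 6.88 FPKM in DAC replicates 4, 5 and 6. The highest DAC animal thus lay below the lowest sham animal, although the sham animals themselves spread widely. The mean was 13.1 ± 5.29 FPKM in sham and 4.93 ± 1.70 FPKM in DAC (SD over 3 animals), so that sham was 2.66 times as high. The log2 fold change of DAC against sham was -1.22 with an SE of 0.30 and a 95% interval of -1.93 to -0.51 (limma, unadjusted P = 0.00483). CLDN5 was called in all 14 alternative settings, with log2 fold changes of -1.49 to -0.94.

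CDH5 and PECAM1, the most widely used markers of endothelial cells, were not called. CDH5 (ENSSSCG00000035772, chr6:27108609-27142180, plus strand) encodes VE-cadherin, the adhesion molecule of the adherens junction. It was at 25.4, 38.2 and 36.7 FPKM in sham and at 21.8, 26.1 and 38.8 FPKM in DAC, and the animal with the highest value of all was DAC replicate 6. The log2 fold change was -0.22 with a 95% interval of -0.79 to 0.35 (limma, unadjusted P = 0.386). PECAM1 (ENSSSCG00000017277, chr12:14582481-14723336, plus strand) encodes an adhesion molecule found along the whole cell border. Its values were 17.7, 28.8 and 34.4 FPKM in sham and 17.8, 20.5 and 27.6 FPKM in DAC. Sham replicate 1 and DAC replicate 4 had almost the same level, and the log2 fold change was -0.26 with a 95% interval of -0.87 to 0.36 (limma, unadjusted P = 0.361). An interval that includes 0 does not show that either gene was unaltered.

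ESAM (ENSSSCG00000015200, chr9:51983019-51992393, minus strand), an adhesion molecule of endothelial tight junctions, was at 29.2, 46.3 and 45.6 FPKM in sham and at 30.7, 25.8 and 36.6 FPKM in DAC. Sham replicates 2 and 3 lay above every DAC animal and sham replicate 1 lay within the DAC range. The log2 fold change was -0.35 with an SE of 0.21 and a 95% interval of -0.85 to 0.14 (limma, unadjusted P = 0.135). Without sham replicate 1, ESAM and PECAM1 were called lower as well, with log2 fold changes of -0.57 (limma, unadjusted P = 0.0146) and -0.52 (limma, unadjusted P = 0.0427), which made 5 markers called lower in place of 3.

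The 2 receptors of the set differed in their result. ROBO4 (ENSSSCG00000015203, chr9:52083008-52097744, minus strand) is the endothelial member of the Roundabout family and is known for stabilising the vessel wall. It was at 19.1, 21.8 and 33.4 FPKM in sham and at 13.5, 11.1 and 17.8 FPKM in DAC, with no overlap of the groups. The mean was 24.7 ± 7.60 FPKM in sham and 14.1 ± 3.39 FPKM in DAC, a level 1.76 times as high in sham, and the log2 fold change was -0.75 with an SE of 0.24 and a 95% interval of -1.32 to -0.19 (limma, unadjusted P = 0.0160). The call was lost without DAC replicate 5, at an unadjusted P of 0.0539 in limma. ROBO4 and ESAM are neighbours on the same strand, 90.6 kb apart.

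TIE1 (ENSSSCG00000003950, chr6:167919668-167940874, minus strand), a receptor tyrosine kinase that works together with the angiopoietin receptor TEK, was at 8.47, 12.2 and 14.3 FPKM in sham and at 9.73, 8.68 and 12.7 FPKM in DAC. The DAC values lay inside the sham range, and the log2 fold change was -0.14 with a 95% interval of -0.64 to 0.35 (limma, unadjusted P = 0.525).

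Of the secreted products, VWF was called lower and EGFL7 was not called. VWF (ENSSSCG00000000712, chr5:64519186-65002098, plus strand) encodes von Willebrand factor, which endothelial cells store and release and which captures platelets at a wound. It was at 37.2, 49.4 and 45.5 FPKM in sham and at 31.7, 27.0 and 34.5 FPKM in DAC, so that every DAC animal lay below every sham animal. The mean was 44.0 ± 6.25 FPKM in sham and 31.1 ± 3.77 FPKM in DAC, or 1.42 times as high in sham, with a log2 fold change of -0.49, an SE of 0.15 and a 95% interval of -0.83 to -0.14 (limma, unadjusted P = 0.0122). As for CLDN5, the call held in all 14 alternative settings, with log2 fold changes of -0.60 to -0.39. VWF is also made by the precursors of platelets. Of 8 platelet markers only ITGA2B and GP9 were listed. ITGA2B lay between 5.64 and 7.74 FPKM over the 6 animals with a log2 fold change of 0.052, and GP9 did not exceed 1.22 FPKM. PF4, PPBP, GP1BA, GP6, TREML1 and TUBB1 were not in the table, so their level is unknown.

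EGFL7 (ENSSSCG00000005828, positions 1107088 to 1116145 of an unplaced scaffold, minus strand) encodes a matrix protein secreted by endothelial cells and is the host gene of a well known endothelial microRNA. The sham animals were nearly alike at 27.0, 30.0 and 30.1 FPKM, DAC replicates 4 and 6 followed at 26.4 and 28.4 FPKM, and DAC replicate 5 stood far below at 13.4 FPKM. The log2 fold change was -0.40 with a 95% interval of -1.02 to 0.21 (limma, unadjusted P = 0.166), and it was -0.080 without DAC replicate 5.

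EMCN was the only marker of the 10 called higher. It encodes endomucin, a sialomucin of the luminal surface that keeps leukocytes from adhering and that is typical of capillaries and veins rather than arteries. EMCN (ENSSSCG00000038080, chr8:120138279-120230966, plus strand) was at 2.86, 3.47 and 2.67 FPKM in sham and at 3.70, 3.68 and 5.45 FPKM in DAC. The groups did not overlap, but the gap between sham replicate 2 and DAC replicate 5 was small and the mean in DAC owed much to replicate 6. The mean was 3.00 ± 0.420 FPKM in sham and 4.28 ± 1.02 FPKM in DAC, 1.43 times as high in DAC, with a log2 fold change of 0.39, an SE of 0.16 and a 95% interval of 0.0089 to 0.77 (limma, unadjusted P = 0.0460). Leaving out sham replicate 1, sham replicate 3 or DAC replicate 6 ended the call, with an unadjusted P in limma of 0.108, 0.131 and 0.133.

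ERG (ENSSSCG00000022318, chr13:202000985-202302577, minus strand), the ETS transcription factor that drives CDH5, CLDN5 and many other endothelial genes, was at 9.79, 16.2 and 11.9 FPKM in sham and at 11.2, 10.5 and 14.8 FPKM in DAC. Its mean was 12.6 ± 3.29 FPKM in sham and 12.2 ± 2.31 FPKM in DAC, the closest pair of means in the set. The log2 fold change was -0.037 with a 95% interval of -0.51 to 0.44 (limma, unadjusted P = 0.858), and its sign was the same in 8 of 14 alternative settings.

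**Figure D2:**
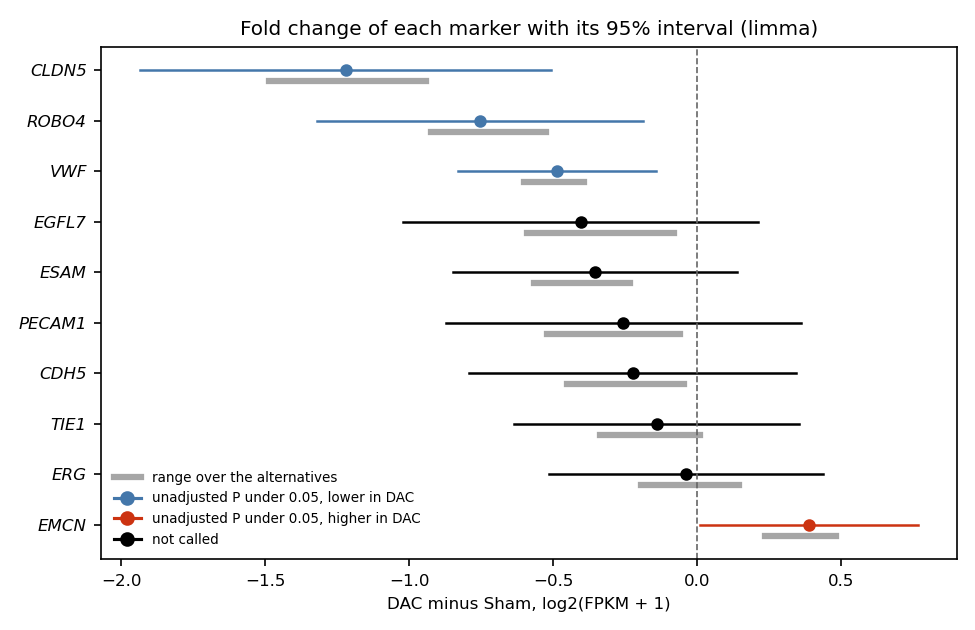
Log2 fold change of each marker, DAC minus sham on log2(FPKM + 1) (horizontal axis), with limma's 95% interval as a thin line and the range over the alternative settings as a grey bar. The intervals of CLDN5, ROBO4 and VWF lie below 0, that of EMCN lies just above 0, and the other 6 include 0.

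The markers also differed in level. By mean FPKM over the 6 animals, which is per length of transcript, the order was VWF at 37.5, ESAM at 35.7, CDH5 at 31.2, EGFL7 at 25.9, PECAM1 at 24.5, ROBO4 at 19.4, ERG at 12.4, TIE1 at 11.02, CLDN5 at 9.03 and EMCN at 3.64 FPKM. Few of these steps are larger than the spread between animals. VWF exceeded ESAM, ESAM exceeded CDH5, CDH5 exceeded EGFL7 and EGFL7 exceeded PECAM1 in 4 of 6 animals each, and PECAM1 exceeded ROBO4 in 5. ROBO4 exceeded ERG in all 6 animals and CLDN5 exceeded EMCN in all 6, while ERG exceeded TIE1 in 5 and TIE1 exceeded CLDN5 in 4. In sham the mean of CLDN5 (13.1 FPKM) was above those of ERG (12.6 FPKM) and TIE1 (11.7 FPKM), and in DAC it was below both, next to EMCN. VWF ranked above 91.4% of the genes tested by mean FPKM and EMCN above 33.7%.

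The spread between animals of 1 group was wide for most of the set. The coefficient of variation over the 3 sham animals ran from 5.98% for EGFL7 to 40.3% for CLDN5, and over the 3 DAC animals from 12.1% for VWF to 35.7% for EGFL7. The highest of the 6 animals was 4.97 times the lowest for CLDN5, 3.02 times for ROBO4 and 1.66 times for ERG, which varied least by this measure.

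Part of this spread was common to the markers within an animal. Sham replicate 1 had the lowest value of its group for 9 of the 10 markers, DAC replicate 5 had the lowest of its group for 8, and DAC replicate 6 had the highest of its group for all 10. The summed level of the 10 markers was 185, 259 and 273 FPKM in sham replicates 1, 2 and 3 and 171, 151 and 224 FPKM in DAC replicates 4, 5 and 6. Sham replicate 1 therefore lay between the DAC animals by this sum. Measured against the sham mean of each gene on the log2(FPKM + 1) scale, the median deviation of the 10 markers was -0.34, 0.15 and 0.18 in sham and -0.40, -0.48 and 0.027 in DAC. DAC replicate 6 was thus near the sham mean for the typical marker, and it was still below the sham mean for CLDN5 (-0.77), ROBO4 (-0.42) and VWF (-0.33).

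**Figure D3:**
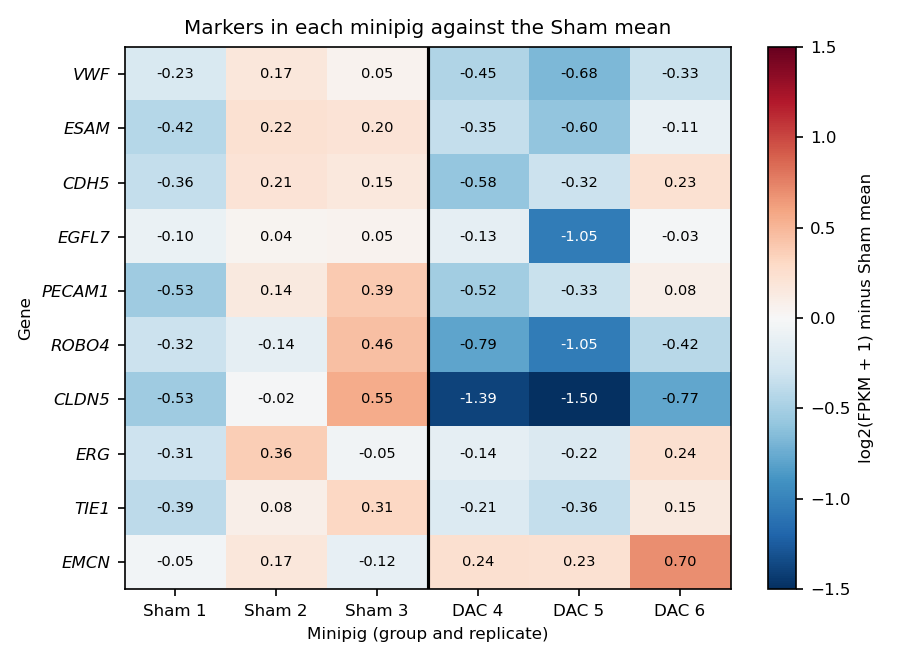
Level of each marker (rows) in each animal (columns) as log2(FPKM + 1) minus the sham mean of the gene, blue for lower and red for higher. Sham 1, DAC 4 and DAC 5 are blue in nearly all rows, and CLDN5, ROBO4 and VWF are blue in all 3 DAC columns.

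FPKM is a share of the sequenced fragments, and the share of mitochondrially encoded genes differed between the groups. These genes made up 24.0% to 25.3% of the summed FPKM in sham and 27.1% to 32.8% in DAC, with the highest share in DAC replicate 5, which also had the lowest summed level of the markers. With these genes left out and the rest rescaled, CLDN5, ROBO4 and VWF were still called lower and EMCN higher, the median log2 fold change of the 10 markers was -0.26, and 8 of 10 had a lower mean in DAC, ERG being the one that turned. The precision given here rests on the spread between animals, with limma drawing each gene's variance toward that of genes of similar level. Counting error is part of that spread. It cannot be given apart from it, because the number of reads behind each value is unknown.

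To set the markers against each other within an animal, which removes any factor common to all genes of that animal, each was divided by CDH5. This comparison was added after the values were known, and 9 ratios were formed. The ratio of CLDN5 to CDH5 was 0.327, 0.322 and 0.511 in sham and 0.190, 0.145 and 0.177 in DAC. Every DAC animal lay below every sham animal, and the mean ratio of 0.387 ± 0.108 in sham and 0.171 ± 0.0234 in DAC gave DAC over sham of 0.442. The ratio of EMCN to CDH5 was 0.113, 0.0909 and 0.0726 in sham and 0.170, 0.141 and 0.140 in DAC, also without overlap, and DAC over sham was 1.64. For both, the two-sided exact permutation test over the 6 animals gave P = 0.1, the smallest it can give here.

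The other 7 ratios overlapped between the groups. The share of all genes whose ratio to CDH5 does not overlap was not computed. The 2 ratios of 9 without overlap therefore have no background to be set beside. That of ROBO4 to CDH5 had DAC over sham of 0.673 (exact permutation P = 0.2) and that of VWF to CDH5 had 0.846 (exact permutation P = 0.3). Relative to CDH5, PECAM1 stood at 0.970, ESAM at 0.927, EGFL7 at 0.922, TIE1 at 1.06 and ERG at 1.14 of their sham level, with exact permutation P of 0.4 to 0.9.

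**Figure D4:**
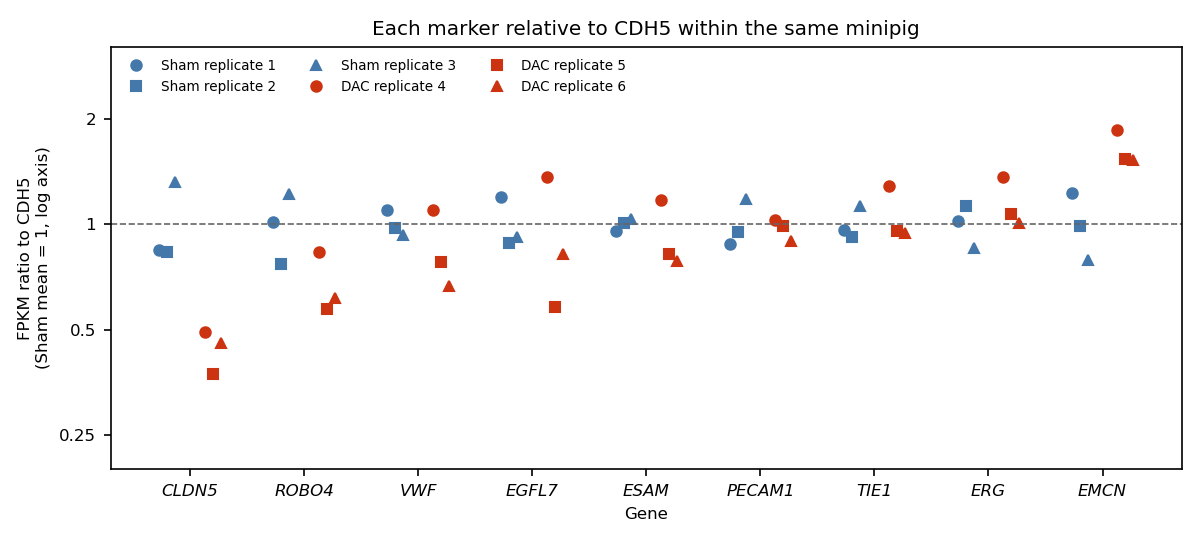
FPKM of each of 9 markers divided by that of CDH5 in the same animal, scaled so that the sham mean is 1 (vertical axis, logarithmic). The DAC animals lie below all sham animals for CLDN5 and above them for EMCN, and the groups overlap for the other 7.

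Some of the markers overlap other genes in the table, always on the same strand, so that a read from the shared stretch could be assigned to either gene. How such reads were assigned is not given in the sources used here, and their part in the values was not tested. The PECAM1 model of the table spans 140.9 kb, against 55.7 kb in RefSeq (Sscrofa11.1), and overlaps DDX5 and POLG2 on the plus strand. In RefSeq, MILR1 and LOC110255989 overlap this model too, and the table lists neither there. DDX5 was at 39.9 FPKM in sham and 41.2 FPKM in DAC, and POLG2 at 3.06 and 1.95 FPKM. EGFL7 lies within the span that the table gives to SSNA1, which was at 23.5 FPKM in sham and 23.8 FPKM in DAC. The VWF model spans 482.9 kb against 139.3 kb in RefSeq and has no other listed gene within it, though RefSeq places ANO2 there. The other 7 markers overlap no gene of the table, and among them the EMCN model spans 92.7 kb against 53.9 kb in RefSeq.

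Other genes of endothelial cells were examined in 3 further lists, of surface and junction genes, signalling genes and transcription factors. Of their 48 genes 46 were listed and tested, and PODXL and BMX were not in the table. The 46 genes were evenly divided, 23 with a higher and 23 with a lower mean in DAC, and their median log2 fold change was -0.0019. Of the 46 genes 2 were called higher, 5 were called lower and 39 were not called, to be set beside 3.25% higher and 5.27% lower among all genes tested. The summed level of these genes was 726 to 969 FPKM in sham and 734 to 936 FPKM in DAC, ranges that overlap almost fully. A few abundant genes weigh heavily in this sum, among them EPAS1 (mean 131 FPKM in each group) and KLF2 (71.4 FPKM in sham and 67.4 FPKM in DAC).

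Among the 19 surface and junction genes, ICAM2 and S1PR1 were called lower and CD34 higher. ICAM2, a ligand of leukocyte integrins present on resting endothelium, was at 4.95, 5.30 and 5.76 FPKM in sham and at 3.77, 3.42 and 4.005 FPKM in DAC, a log2 fold change of -0.42 with an SE of 0.11 (limma, unadjusted P = 0.00558). S1PR1, the receptor through which sphingosine phosphate tightens the endothelial barrier, was at 32.2, 53.4 and 52.9 FPKM in sham and at 24.3, 30.0 and 33.6 FPKM in DAC (log2 fold change -0.61, limma, unadjusted P = 0.0265). Sham replicate 1 again lay within the DAC range. CD34, a surface protein of capillary endothelium that is also present on some stromal cells, rose from 20.4, 22.9 and 21.5 FPKM in sham to 28.1, 29.8 and 38.8 FPKM in DAC, a log2 fold change of 0.55 with an SE of 0.14 (limma, unadjusted P = 0.00582). ICAM2 and CD34 were called in every alternative setting that tested them. S1PR1 lost its call with the variance of each gene on its own and on leaving out sham replicate 2, sham replicate 3, DAC replicate 4 or DAC replicate 5, with an unadjusted P in limma of up to 0.0889 over its alternative settings.

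Of the 13 signalling genes, FLT1 and NOS3 were called lower and KDR higher. KDR, the main signalling receptor for VEGF, was at 11.7, 16.6 and 9.36 FPKM in sham and at 17.95, 15.3 and 24.97 FPKM in DAC (log2 fold change 0.60, limma, unadjusted P = 0.0395), with sham replicate 2 inside the DAC range. FLT1, a VEGF receptor that also acts as a decoy, was at 27.2, 35.5 and 34.3 FPKM in sham and at 20.7, 24.3 and 25.4 FPKM in DAC (log2 fold change -0.44, limma, unadjusted P = 0.0154). The groups did not overlap for FLT1, so the VEGF receptors KDR and FLT1 were called in opposite directions. NOS3, the endothelial nitric oxide synthase, was at 7.29, 11.5 and 16.6 FPKM in sham and at 6.31, 7.15 and 7.56 FPKM in DAC (log2 fold change -0.61, limma, unadjusted P = 0.0474). Its call held in only 4 of 14 alternative settings and was lost under each of the 3 other scalings, with sample weights, with the variance of each gene on its own and on leaving out any sample other than sham replicate 1. Over these settings the unadjusted P of NOS3 in limma was up to 0.130. KDR was not called with the variance of each gene on its own or on leaving out sham replicate 1, sham replicate 3, DAC replicate 4 or DAC replicate 6 (up to 0.128), and FLT1 was not on leaving out sham replicate 2 or 3 (up to 0.0547).

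Of the 14 transcription factors 1 was called, ETS2, a relative of ERG that is not limited to endothelium. It was at 39.6, 36.8 and 32.3 FPKM in sham and at 21.5, 27.4 and 22.7 FPKM in DAC, with no overlap and a log2 fold change of -0.59 (SE 0.13, limma, unadjusted P = 0.00296). GATA2 (15.8 FPKM in sham and 10.8 FPKM in DAC) and KLF4 (21.4 and 15.4 FPKM) were not called, and the median of the 14 was -0.025.

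Binding partners of the markers gave no call. Of 21 such genes, among them the catenins that join VE-cadherin to actin, the scaffold proteins of tight junctions, the kinase TEK, the SLIT ligands of the Roundabout receptors and coagulation factor VIII that VWF carries, 16 were tested, and their median log2 fold change was -0.013. F8 had the value -0.28 (limma, unadjusted P = 0.103) and SLIT2 0.57 (limma, unadjusted P = 0.0820). ANGPT1, ADAMTS13 and SELP were not in the table, and ANGPT2 and MMRN1 were below the minimum for testing.

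Lists of markers of vessel types were tested by the same fit, and they share some genes with the other lists. KDR is also in the signalling list, VCAM1 in that of endothelial activation, and PLVAP in the surface and endocardial lists. The 8 capillary markers had a median log2 fold change of -0.11 with KDR as the only one called, and the 9 arterial markers had -0.074 with none called. The 6 venous markers had the highest median of these lists, 0.41, with VCAM1 called higher, at 6.32, 7.15 and 4.50 FPKM in sham and 9.32, 10.7 and 7.25 FPKM in DAC (limma, unadjusted P = 0.0261). VCAM1 is an adhesion molecule of inflamed endothelium, and its call was lost with the variance of each gene on its own and on leaving out sham replicate 3, DAC replicate 4 or DAC replicate 5 (limma, unadjusted P up to 0.0832 over these settings). EPHB4, the ephrin receptor of veins, was at 6.69, 8.84 and 9.41 FPKM in sham and at 5.70, 4.61 and 7.93 FPKM in DAC, a log2 fold change of -0.41 that was opposite in sign to the median and was not called (limma, unadjusted P = 0.0772). ACKR1, a chemokine receptor of venules, was at 3.15, 2.16 and 0.722 FPKM in sham and at 3.37, 4.93 and 2.61 FPKM in DAC and was not called (log2 fold change 0.68, limma, unadjusted P = 0.0798). PLVAP, the diaphragm protein of fenestrated capillaries and venules, was at 3.61, 5.80 and 6.41 FPKM in sham and at 10.4, 16.4 and 4.35 FPKM in DAC and was not called (limma, unadjusted P = 0.120). DAC replicate 6 lay inside the sham range of PLVAP, and the other two DAC animals lay above it.

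Of 6 lymphatic markers tested, PDPN was called higher, at 6.64, 5.01 and 5.70 FPKM in sham and 8.76, 8.89 and 8.29 FPKM in DAC (limma, unadjusted P = 0.00333), while the list's median was -0.20. PDPN is also made by activated fibroblasts, and LYVE1 had a log2 fold change of -0.62 (limma, unadjusted P = 0.0620). Of 5 endocardial markers CDH11 was called higher, with a list median of -0.0066. Of 6 genes of endothelial activation VCAM1 and CCL2 were called higher, with a list median of -0.0030. CCL2, a chemokine for monocytes, was at 8.32, 7.11 and 8.12 FPKM in sham and at 19.8, 8.84 and 18.6 FPKM in DAC (limma, unadjusted P = 0.0183). SELE, SELP, CXCL8 and TFPI were not in the table. PDPN was called in all 14 alternative settings, whereas CCL2 and CDH11 lost theirs with the variance of each gene on its own. CCL2 also lost its call on leaving out sham replicate 2, DAC replicate 4 or DAC replicate 6 (limma, unadjusted P up to 0.0738 over all its settings) and CDH11 on leaving out sham replicate 2 or 3 or DAC replicate 4 or 5 (up to 0.0884).

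**Figure D5:**
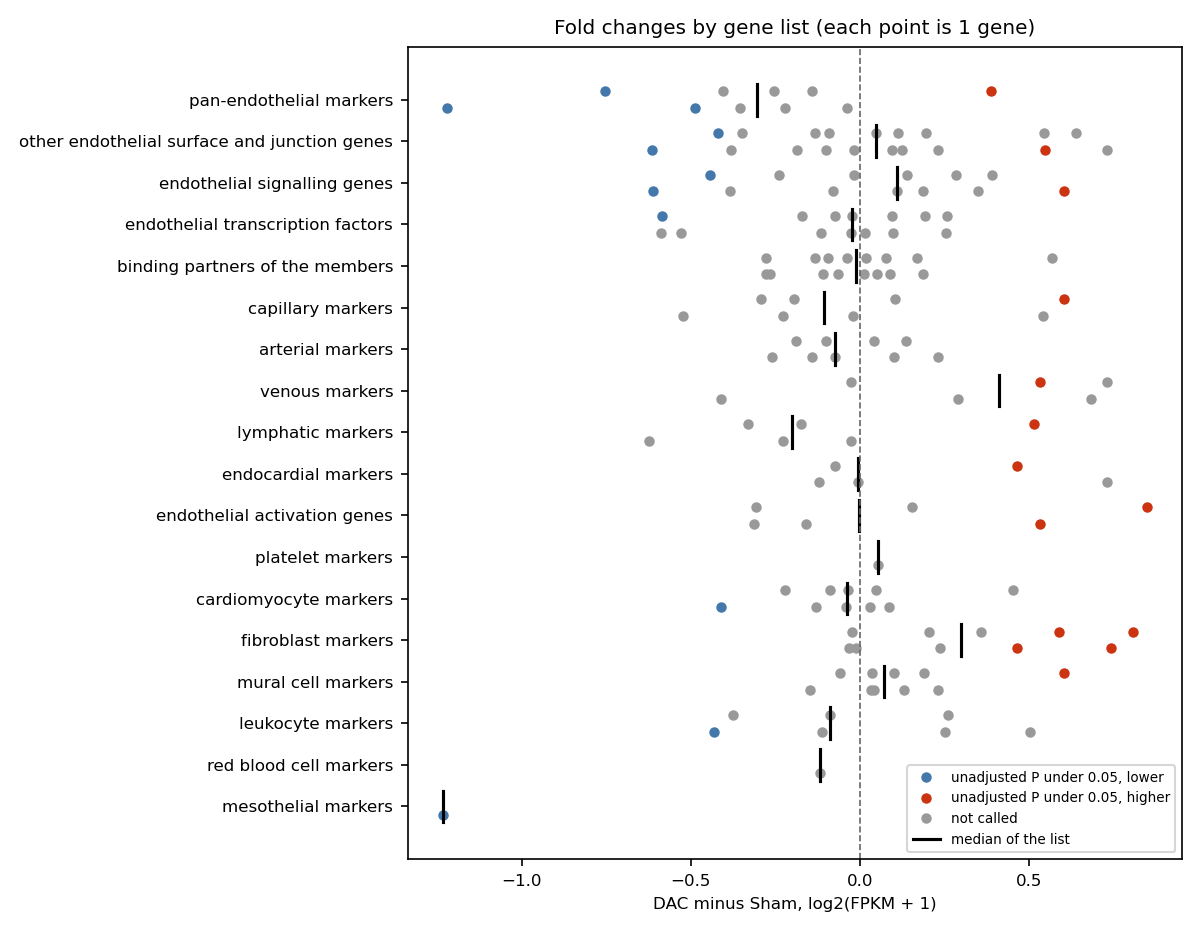
Log2 fold change, DAC minus sham on log2(FPKM + 1) (horizontal axis), of every tested gene of each list, blue for called lower, red for called higher and grey for not called, with the median as a black line. The median of the 10 pan-endothelial markers is -0.30, those of the other endothelial lists lie on both sides of 0, and that of the fibroblast markers is 0.30.

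Markers of the other cells of the ventricle were measured beside them. Of 10 fibroblast markers 4 were called higher, the matrix genes COL1A1, COL1A2, COL3A1 and LUM, against 3.25% of all genes tested. The other 6 were not called. Their log2 fold changes were 0.36 for DDR2, 0.24 for PDGFRA, 0.20 for FBLN1, -0.012 for DCN, -0.022 for TCF21 and -0.032 for MFAP5. The summed level of the list was 538 to 614 FPKM in sham and 746 to 865 FPKM in DAC. COL1A1, COL1A2 and COL3A1 are among its most abundant genes and weigh heavily in this sum. COL1A1, a chain of the main fibrillar collagen, rose from 94.0 ± 13.4 to 165 ± 26.4 FPKM, and DCN, the proteoglycan decorin, had 149.6 ± 9.62 and 156 ± 59.2 FPKM. The 10 markers of mural cells, the smooth muscle cells and pericytes of the vessel wall, summed to 199 to 233 FPKM in sham and 220 to 248 FPKM in DAC, with CNN1 called higher and the pericyte gene RGS5 at 51.0 and 52.4 FPKM and the smooth muscle gene TAGLN at 39.1 and 45.5 FPKM. Of 14 cardiomyocyte markers 10 were listed and tested, and MYH6, PLN, MB and TTN were not in the table. RYR2 was called lower, and the sums were 16798 to 17749 FPKM in sham and 15988 to 19181 FPKM in DAC. The ventricular myosin light chain MYL2 was at 4525 and 4688 FPKM and the troponin TNNT2 at 4387 and 4689 FPKM. The mean was lower in DAC for 6 of the 10 and higher for 4, with a median log2 fold change of -0.038. The 8 leukocyte markers listed summed to 48.2 to 51.8 FPKM in sham and 39.0 to 57.2 FPKM in DAC. The macrophage receptor CD163 was called lower, and CSF1R was at 21.4 and 20.3 FPKM. Of the 7 tested, 3 had a higher mean in DAC and 4 a lower one, with a median log2 fold change of -0.088. Those higher were CD68 (log2 fold change 0.50, limma, unadjusted P = 0.0918), PTPRC (0.26) and AIF1 (0.25), none of them called. The calls of the 4 fibroblast genes and of CD163 held in all 14 alternative settings, that of CNN1 in 10 and that of RYR2 in 7. The part of these shifts in the values of the 10 endothelial markers was not tested.

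The only mesothelial gene tested was called lower. WT1, a transcription factor of the epicardium, was at 4.76, 10.3 and 11.4 FPKM in sham and at 2.36, 2.49 and 4.30 FPKM in DAC (log2 fold change -1.23 with an SE of 0.32, limma, unadjusted P = 0.00586). Its lowest sham value was in replicate 1, as for 9 of the 10 endothelial markers, and its highest DAC value in replicate 6, as for all 10. This order of the animals is thus not particular to CLDN5 or to the markers called lower. KRT8, the only other one of 6 mesothelial markers in the table, did not exceed 0.737 FPKM, and MSLN, UPK3B, KRT19 and ITLN1 were not listed. HBB, the red blood cell gene that was tested, was high in sham replicate 2 (38.04 FPKM) and DAC replicate 6 (37.6 FPKM) and between 5.86 and 16.0 FPKM in the others, a pattern that did not separate the groups. The adipocyte markers ADIPOQ and CIDEC summed to at most 1.34 FPKM in any animal. Whether the WT1 difference had a part in that of CLDN5 was not tested.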

How the data were processed

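RNA of ventricular myocardium from 3 sham and 3 DAC minipigs was sequenced as paired ends after preparation with a NEBNext Ultra kit. The submitters' processing notes name HISAT2 and the build susScr11. The program that gave the values is not given in the sources used here. The authors deposited 1 table of FPKM with a column per animal, and no other per-sample column was present. Each of the 13288 listed genes had at least 0.500 FPKM in its highest sample. Symbols and positions are those of the table, and 10581 of 10591 symbols found in RefSeq overlapped their position in Sscrofa11.1. Steps of whole reads could not be seen, as no log2 ratio of a pair of samples recurred in more than 6 genes where 6970 or more were compared. Depth is therefore unknown.

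Groups were compared on log2(FPKM + 1) with limma 3.58.1 in R 4.3.3, whose moderated variance followed the mean level (trend). Genes reaching 1 FPKM in 3 or more of the 6 samples entered the fit, 11029 in all. P-values were two-sided, and the adjusted P is that of Benjamini-Hochberg over all genes tested. Fold changes on this scale understate those of low genes. The labels give no batch. The steps were tested on simulated data. Permutation tests used Python 3.11.15, and figures matplotlib 3.10.9.

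All 10 markers are named. Of the other lists, the genes called and up to 3 more with the smallest P are named, and of the other cell types those called and the 2 most abundant. A few further genes were named after their values were seen. They are KRT8, GP9, CIDEC, EPAS1, KLF2, CD68, PTPRC, AIF1, the less abundant fibroblast markers not called and genes overlapping a marker. Members, lists and tests were chosen with earlier results of these data known. P-values rest on the spread between these animals, and those of limma also on the variance of genes of similar level. The alternatives were no minimum, a minimum of 5 FPKM, a pseudocount of 0.1, 3 other scalings (median, quantile, mitochondrially encoded genes left out), the variance of each gene on its own, sample weights and each sample left out. Ratios to CDH5 were added after seeing the data. No sequence was used here.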

Additional observations from a re-analysis of the deposited data

How the results depend on the processing

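CLDN5, ROBO4 and VWF remained called lower and EMCN higher with no minimum, a pseudocount of 0.1, median scaling, quantile normalization, mitochondrially encoded genes left out and sample weights. The median log2 fold change of the 10 markers lay between -0.35 and -0.25 over the settings that kept all samples and between -0.49 and -0.20 when 1 sample was left out. The number called higher was 0 with a minimum of 5 FPKM, which removes EMCN, and 0 with the variance of each gene on its own, where ROBO4 was lost too and 2 markers were called lower. With 1 sample left out, 0 to 1 markers were called higher and 2 to 5 lower. The 5 arose on omitting sham replicate 1 and the 2 on omitting DAC replicate 5, and the cause was not tested. Over all genes, 358 were called higher and 581 lower. These became 165 and 414 with a minimum of 5 FPKM, 500 and 407 with mitochondrially encoded genes left out, 429 and 479 with median scaling and 418 and 469 with quantile normalization. Without sham replicate 1, 359 genes were called lower, and 387 without sham replicate 3. An adjusted P under 0.05 was reached by 0 genes with all samples (939 at the unadjusted threshold) in limma, and by 1 gene on omitting sham replicate 3 or DAC replicate 6. No paired analysis was made, because the animals were assigned at random to sham or DAC and no pairing of animals is given. Depth is unknown, so counting error cannot be given.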
